A study of Mus musculus with 6 samples.

Results

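The 10 genes described here encode ligands, receptors and feedback inhibitors of fibroblast growth factor (FGF) and platelet-derived growth factor (PDGF) signalling: *Fgf2*, *Pdgfa*, *Fgfr1*, *Fgfr2*, *Fgfr3*, *Pdgfra*, *Pdgfrb*, *Spry1*, *Spry2* and *Spry4*. They were chosen by name as members of these families, with earlier results of these data known, and all 10 were among the 16300 genes of the deposited expression table. Transcripts were measured by RNA-seq in primary granulosa cells (GCs) of wild type C57BL/6J mice aged 8 to 9 weeks. GCs line the ovarian follicle, nourish the oocyte and make estrogen. The cells were taken on the day of estrus, cultured with serum, serum-starved, and then kept for 24 h in medium alone (control, 3 libraries) or in medium with 25 nM dihydrotestosterone (DHT, 3 libraries), a potent androgen that aromatase does not turn into estrogen. No gene was altered in either group. Each library pooled the GCs of 5 mice, so animals within a pool cannot be told apart. The comparison asks which of these genes change their transcript level when androgen is added.

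Most FGFs and the PDGFs are secreted proteins that bind receptor tyrosine kinases at the cell surface. FGF receptors need heparan sulfate chains beside the ligand, and both receptor families pass the signal through adaptor proteins to RAS and the ERK kinases. Sprouty proteins are inhibitors of this route that ERK signalling itself induces, which makes them a negative feedback. In the ovary, FGF2 is known as a growth and survival factor for GCs, whereas PDGF receptors are best known from theca, stromal and vascular mural cells around the follicle.

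The promoters of *Spry2* and *Fgfr3*, which showed the clearest falls described below, are shown with that of *Spry1*, a Sprouty gene that did not pass the test. Each window runs from 250 bases before to 50 bases after a RefSeq transcript start on GRCm38.p6. Of the 10 genes, 7 matched a promoter in the RefSeq table by symbol. Those of *Fgfr1*, *Pdgfrb* and *Spry4* were not used here. Capitals mark matches to CCGGAA, the core of ETS factor sites, which ERK signalling acts on. The *Spry2* window is on the minus strand of chr14:105896770-105897069, the *Fgfr3* window on the plus strand of chr5:33721474-33721773 and the *Spry1* window on the plus strand of chr3:37639697-37639996.
Spry2: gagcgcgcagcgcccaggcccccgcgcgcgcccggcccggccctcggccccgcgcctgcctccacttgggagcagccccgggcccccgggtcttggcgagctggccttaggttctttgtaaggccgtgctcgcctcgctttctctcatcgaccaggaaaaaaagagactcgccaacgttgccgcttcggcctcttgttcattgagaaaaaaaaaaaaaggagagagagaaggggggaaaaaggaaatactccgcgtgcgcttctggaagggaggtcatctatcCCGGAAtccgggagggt
Fgfr3: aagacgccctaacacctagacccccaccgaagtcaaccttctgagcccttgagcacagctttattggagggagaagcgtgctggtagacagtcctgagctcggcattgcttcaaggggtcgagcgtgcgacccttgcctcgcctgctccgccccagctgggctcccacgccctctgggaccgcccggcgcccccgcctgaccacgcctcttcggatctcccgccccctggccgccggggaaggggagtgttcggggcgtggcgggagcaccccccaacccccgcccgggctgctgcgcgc
Spry1: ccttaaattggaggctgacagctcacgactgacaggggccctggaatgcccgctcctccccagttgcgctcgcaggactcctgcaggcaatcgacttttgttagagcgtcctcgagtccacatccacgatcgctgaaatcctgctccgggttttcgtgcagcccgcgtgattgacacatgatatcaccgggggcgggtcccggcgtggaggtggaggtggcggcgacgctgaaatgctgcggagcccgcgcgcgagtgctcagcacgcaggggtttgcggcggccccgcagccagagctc

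The *Spry2* window held 1 match to CCGGAA on either strand, at position 284 of 300, which lies after the transcript start. The windows of the other matched genes, printed or not, held none. Of all 32851 promoter windows of this length, 14.9% held this motif. The palindromic androgen response element, AGAACA and TGTTCT with 3 bases between, was found in none of the windows of the 7 genes, and 0.00913% of all windows held it. The single repeat AGAACA, which lies within that element, was searched on both strands, was absent from these windows too and was found in 19.0% of all windows. No match means only that these letters are not in these windows. The 3 windows were rich in CpG dinucleotides, with 28 in *Spry2*, 26 in *Fgfr3* and 29 in *Spry1*, against a median of 7 over all windows. *Fgfr3* had a second RefSeq start, with the window chr5:33722056-33722355 and 30 CpG dinucleotides, and only the upstream window is printed.

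The deposited values are normalized counts, the reads of a gene divided by the DESeq2 size factor of its library. The reads could be recovered from them and summed to between 38486526 and 41928585 in the control and between 36111177 and 39777305 in the DHT libraries. The lowest read number behind any value of the 10 genes was 45, in *Spry4*, and the highest was 2372, in *Fgfr1*. Fold changes were taken on log2(normalized count + 1), a scale that understates the change of low genes, and tested with limma over all 16292 genes with a mean of at least 10. The threshold for passing was a Benjamini-Hochberg adjusted p of 0.05. The GC identity was visible in *Foxl2*, a transcription factor of this lineage, with 2505 ± 78.2 normalized counts in control (SD, n = 3), and in *Inha*, the inhibin alpha subunit, with 54181 ± 5157. Of 12 GC markers, 11 were in the table, and their summed level was 196290 to 211675 normalized counts in the control and 184939 to 198156 in the DHT libraries. Most of this sum came from *Gja1*, *Inha* and *Inhba*. Of these 11 markers, 3 passed the test, against 11.2% of all genes tested: *Inha* fell by 34.4%, *Foxl2* fell by 9.93%, and *Hsd17b1*, an enzyme of estrogen synthesis, rose by 39.8%. *Cyp19a1*, the aromatase gene, was the marker without a row. The oocyte markers differed most between libraries, with a sum of 108 normalized counts in DHT replicate 2 and of 355 to 834 in the other 5 libraries.

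Of the 10 genes, 4 passed the test, 3 lower and 1 higher in DHT. Over all genes tested, 11.2% passed, 4.66% lower and 6.52% higher. *Spry2* fell by 47.5%, *Spry4* by 43.0% and *Fgfr3* by 41.9%, whereas *Fgfr1* rose by 21.1%. None of the 10 also had an absolute log2 fold change above 1, a stricter call that 1.31% of all genes tested met. The control and DHT libraries did not overlap in the same 4 genes, and this was the case for 30.6% of all genes tested. The median log2 fold change was -0.07 over the 10 genes and -0.0052 over all genes tested. Because each group had 3 libraries, an exact permutation test cannot go below a p of 0.1, the value that each of these 4 genes reached. The plot of normalized counts by library shows the separation in these 4 genes and the overlap in the other 6.

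**Figure D1:**
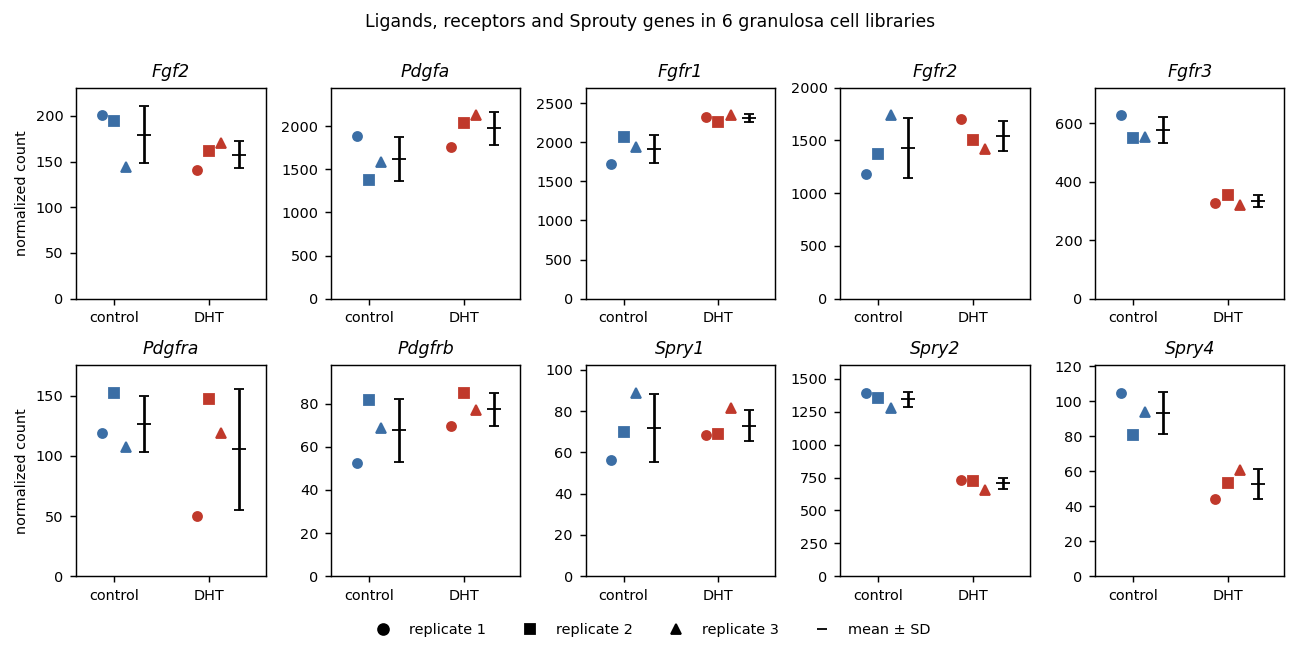
Normalized counts of the 10 genes in 3 control (blue) and 3 DHT (red) libraries, with the mean ± SD of each group in black and each vertical axis starting at 0. In *Spry2*, *Spry4* and *Fgfr3* every DHT library lies below every control library, in *Fgfr1* every DHT library lies above, and DHT replicate 1 of *Pdgfra* lies apart at 49.9.

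Levels were compared between genes only per kb of exon, by the GENCODE annotation of GRCm38. In control GCs, *Spry2* was the highest of the 10 genes, with 644 ± 28.1 normalized counts per kb (SD, n = 3). *Pdgfa* followed with 518 ± 81.2 normalized counts per kb, and their libraries did not overlap, although the lowest *Spry2* level of 613 was close to the highest *Pdgfa* level of 604. The FGF receptors came next in the order *Fgfr1*, *Fgfr2* and *Fgfr3*, with 193 ± 17.8, 139 ± 27.5 and 80.5 ± 6.18 normalized counts per kb. The annotated exons of *Fgfr2* share bases with *Ctbp2* on the same strand. How far these bases move its level per kb was not tested, and the lowest *Fgfr1* level of 174 was close to the highest *Fgfr2* level of 169. *Fgf2* with 26.5 ± 4.62 and *Spry1* with 24.7 ± 5.63 normalized counts per kb overlapped each other, and so did *Spry1* and *Spry4*, which had 19.6 ± 2.53. The PDGF receptors were the lowest, with 12.6 ± 2.33 in *Pdgfra* and 12.3 ± 2.68 in *Pdgfrb*, and did not differ beyond their spread.

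**Figure D2:**
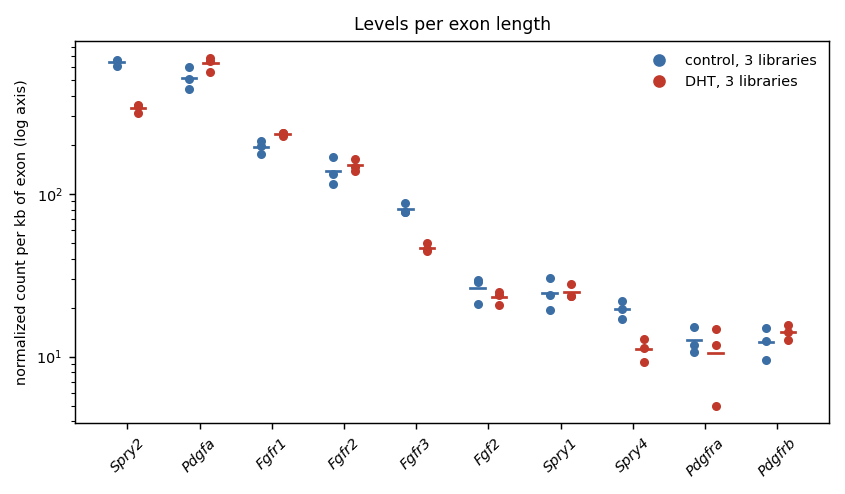
Normalized counts per kb of exon on a log axis, for 3 control (blue) and 3 DHT (red) libraries of each gene, ordered by the control mean, which the short lines mark. *Spry2* is highest in control at 644 and lies at 338 in DHT, below *Pdgfa* at 632.

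Of the ligands, *Fgf2* (chromosome 3 of GRCm38, 37348346 to 37410108) had 201, 194 and 144 normalized counts in control replicates 1, 2 and 3 and 141, 161 and 169.8 in the DHT replicates. The groups overlapped, with control replicate 3 close to the lowest DHT library. Its log2 fold change was -0.18 (95% interval -0.52 to 0.16, limma adjusted p = 0.51). It was -0.09 without control replicate 1 and -0.33 without control replicate 3, and passed in neither fit. Exons of *Fgf2* overlap *Nudt6* on the other strand, whose mean was 126 normalized counts without and 107 with DHT. No source used here states that the counting used strand, so reads of the shared bases cannot be told apart. The same holds for *Pdgfa* with *6330403L08Rik*, whose means were 442 and 443 normalized counts, for *Fgfr1* with *Gm16159* and for *Pdgfra* with *Gm42802* and *Gm42803*, which have no row in the table used.

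*Pdgfa* (chromosome 5, 138976014 to 138997370), which encodes the A chain of PDGF and signals mainly through PDGFRA, had 1883, 1379 and 1588 normalized counts in control and 1754, 2036 and 2128 in DHT. DHT replicate 1 lay below control replicate 1, and the other 2 DHT libraries lay above all controls. The log2 fold change was 0.29 (95% interval 0.05 to 0.54) and the limma adjusted p was 0.13. The call depended on the test and on a control library. The adjusted p was 0.039 by DESeq2 on the recovered reads, and 0.028 by limma without control replicate 1, where the log2 fold change was 0.41.

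Of the FGF receptors, *Fgfr3* (ENSMUSG00000054252; chromosome 5, 33721674 to 33737068) changed most. It had 627, 550.1 and 551 normalized counts in control and 326, 356 and 320.0 in DHT, so the highest DHT library held far fewer than the lowest control. The log2 fold change was -0.78 ± 0.08 (SE; 95% interval -0.97 to -0.60, limma adjusted p = 0.00049). Leaving out any of the 6 libraries moved it no further than -0.83 or -0.72, and it passed every time. FGFR3 is a receptor tyrosine kinase that restrains bone growth, and it was the lowest of the 3 FGF receptors in these cells. Exons of *Fgfr3* overlap *G630022F23Rik* on the other strand, which has no row in the table used.

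*Fgfr1* (ENSMUSG00000031565; chromosome 8, 25513654 to 25575718), the main receptor for FGF2 in many mesenchymal cells, moved the other way. It had 1723, 2070.4 and 1938 normalized counts in control and 2321, 2253 and 2346 in DHT. The DHT libraries lay close together and above all controls. The log2 fold change was 0.28 ± 0.06 (SE; 95% interval 0.13 to 0.42, limma adjusted p = 0.025). The call was lost without DHT replicate 1, 2 or 3, with adjusted p values of 0.072, 0.069 and 0.10 by limma, and without the intensity trend, with 0.11.

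*Fgfr2* (chromosome 7, 130162451 to 133123350), a receptor best known from epithelia, had 1180.4, 1375 and 1741 normalized counts in control and 1702, 1502 and 1422 in DHT. Its annotated span runs well beyond its matched RefSeq promoter window, at 130266759 to 130267058 on the minus strand. The DHT libraries all lay within the control range, and the log2 fold change was 0.12 (95% interval -0.16 to 0.41, limma adjusted p = 0.61). The summed level of the 3 FGF receptors was 413 ± 33.3 normalized counts per kb without and 429.5 ± 13.8 with DHT (SD, n = 3), and the groups overlapped. Within this sum, *Fgfr3* held 17.4% to 23.3% in the control and 10.2% to 11.7% in the DHT libraries. *Fgfr1* held 44.4% to 50.0% in control and 52.8% to 56.6% in DHT, and *Fgfr2* 30.4% to 38.1% and 32.8% to 37.0%. These shares follow from the 3 levels and were given as a description, with no test. The sum and the shares use the exonic length of *Fgfr2* with the bases it shares with *Ctbp2*, and were not computed without them.

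The PDGF receptors were low and neither passed the test. *Pdgfra* (chromosome 5, 75152292 to 75198215) had 119, 152 and 107 normalized counts in control and 49.9, 147 and 119 in DHT. DHT replicate 1, with 51 reads, stood below all other libraries, and the other 2 DHT libraries lay within the control range. The log2 fold change was -0.38 (95% interval -1.17 to 0.41, limma adjusted p = 0.55), and 0.08 without DHT replicate 1. *Pdgfrb* (chromosome 18, 61045150 to 61085061) had 52.4, 81.8 and 68.6 normalized counts in control and 69.5, 85.1 and 77.3 in DHT. Its groups overlapped, with control replicate 1 the lowest library, and its log2 fold change was 0.21 (95% interval -0.23 to 0.64, limma adjusted p = 0.56). It was 0.04 without control replicate 1 and 0.36 without control replicate 2, and passed in neither fit. At these levels, changes of the size seen in *Fgfr3* lie inside the interval of *Pdgfra* on the side of a fall, but outside that of *Pdgfrb*.

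Because PDGF receptors mark cells other than GCs, markers of those cells were read in the same libraries. Transcript levels in such bulk samples cannot tell fewer cells of a type from less RNA per cell. Of 7 stromal fibroblast markers, 6 were in the table and none passed the test, and their sum was 3845 to 5020.0 normalized counts in control and 4496 to 5202 in DHT. Of 9 pericyte and smooth muscle markers, 6 were in the table, and 3 of them, *Cspg4*, *Acta2* and *Myh11*, rose in DHT, against 6.52% of all genes tested. The other 3, *Mcam*, *Notch3* and *Des*, did not pass, with log2 fold changes of -0.05, 0.24 and 0.25. All 6 together summed to 7602 to 11478 normalized counts in control and 12887 to 13831 in DHT, with most of the sum from *Acta2* and *Mcam*. The pericyte markers *Rgs5*, *Kcnj8* and *Abcc9* had no row. *Cspg4*, which encodes the NG2 proteoglycan, rose from 32.2 ± 4.33 to 60.4 ± 6.84 normalized counts (SD, n = 3). *Cyp17a1*, *Insl3* and *Hhip* of the 6 theca markers had no row either, and none of the 3 with a row passed. The theca list summed to 136384 to 157386 normalized counts in control and 124886 to 127361 in DHT, nearly all from *Aldh1a1*. Endothelial markers summed to at most 277 and leukocyte markers to at most 605 normalized counts in any library. *Csf1r*, the receptor of macrophages, fell from 102 ± 11.4 to 64.9 ± 5.73 (SD, n = 3), 1 of 4 leukocyte markers in the table to pass, against 11.2% of all genes tested. *Ptprc*, the general leukocyte marker CD45, had 8.47 ± 2.59 normalized counts without and 14.3 ± 2.00 with DHT (SD, n = 3) and did not pass, nor did *Cd68* and *Lyz2*, with log2 fold changes of -0.07 and -0.11. The part of these cells in the levels of the 10 genes was not tested.

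Of the Sprouty genes, *Spry2* (ENSMUSG00000022114; chromosome 14, 105891947 to 105896819) had the smallest p of the 10 genes. It had 1395, 1358 and 1280.3 normalized counts in control and 734, 727 and 656 in DHT. Every DHT library lay far below every control, and both groups were tight, at 1344 ± 58.6 and 706 ± 42.9 (SD, n = 3). The log2 fold change was -0.93 ± 0.06 (SE; 95% interval -1.07 to -0.79, limma adjusted p = 6.6e-05). Leaving out any of the 6 libraries gave values from -0.96 to -0.88, all of which passed.

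*Spry4* (ENSMUSG00000024427; chromosome 18, 38586247 to 38601415) was much lower than *Spry2*, with 105, 80.8 and 93.6 normalized counts in control and 44.0, 53.5 and 60.9 in DHT. The groups did not overlap, and the highest DHT library stayed below the lowest control. The log2 fold change was -0.81 ± 0.18 (SE; 95% interval -1.22 to -0.40, limma adjusted p = 0.021). The adjusted p rose to 0.070 without control replicate 1, 0.063 without DHT replicate 1 and 0.067 without DHT replicate 2 by limma. The log2 fold changes in these 3 fits were -0.72, -0.69 and -0.83.

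*Spry1* (chromosome 3, 37639947 to 37644598) had 56.4, 69.7 and 88.9 normalized counts in control and 68.5, 68.7 and 81.6 in DHT. All DHT libraries lay within the control range, and the log2 fold change was 0.04 (95% interval -0.39 to 0.48, limma adjusted p = 0.92). This interval does not reach the fitted values of *Spry2* and *Spry4*. Exons of *Spry1* overlap *Gm42922* on the other strand, which has no row. The summed level of *Spry1*, *Spry2* and *Spry4* fell from 664 to 710 normalized counts per kb in the control libraries to 355 to 384 in the DHT libraries. *Spry3*, left out of this sum, had 24.6 ± 1.16 normalized counts without and 27.9 ± 4.45 with DHT (SD, n = 3, limma adjusted p = 0.71). *Spry2* held 92.4% to 94.2% of this sum in control and 88.5% to 91.5% in DHT, so the sum followed *Spry2*. The plot of fold changes shows *Spry2*, *Spry4* and *Fgfr3* with intervals wholly below 0.

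**Figure D3:**
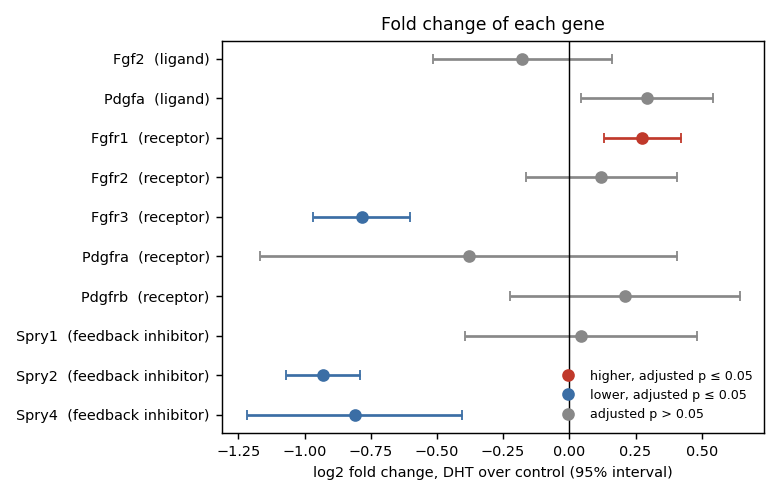
Log2 fold change of DHT over control with its 95% interval from limma, by gene and role. Blue and red points passed the test and grey ones did not. *Spry2* at -0.93, *Spry4* at -0.81 and *Fgfr3* at -0.78 are lower in DHT, *Fgfr1* at 0.28 is higher, and the interval of *Pdgfra* is the widest.

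The rest of the pathway was read from 6 lists with 104 genes, of which 89 were in the table and tested. Of these 89 genes, 5 rose and 11 fell in DHT, so 16 of 89 passed against 11.2% of all genes tested. The median log2 fold change of the 89 genes was -0.0047. Of the 16 genes that passed, 8 passed whichever library was left out: *Pdgfd*, *Sdc1*, *Gpc1*, *Sulf1*, *Frs2*, *Cblb*, *Dusp4* and *Egr1*. The other 8 lost the call in at least 1 of the 6 fits. Without the intensity trend, 2 genes rose and 2 fell, and those that lost the call included *Pdgfd*, *Frs2* and *Egr1*.

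Among the other genes of the FGF family, 9 of 21 were in the table, none rose and 1 fell, a share near the 11.2% of all genes tested that passed. This was *Fgf18*, the highest of them per kb of exon, from 1039.9 ± 17.0 to 882 ± 32.8 normalized counts (SD, n = 3), or by a log2 fold change of -0.24 (limma adjusted p = 0.018). *Fgf18* lost the call without DHT replicate 2 or 3. *Fgf9*, known for its part in gonad development, stood at 145 ± 14.7 normalized counts without and 109 ± 17.0 with DHT (SD, n = 3) and did not pass (limma adjusted p = 0.12). The median log2 fold change of the list was 0.0025, the value of *Fgf13*. The list, labelled as ligands in the plot of lists, also held *Fgf11*, *Fgf12* and *Fgf13*. These do not encode secreted ligands and did not pass.

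Of the other PDGF ligands and receptor-like genes, 6 of 8 were in the table, none rose and 1 fell, with a median log2 fold change of -0.07. Over all genes tested, 4.66% fell. *Pdgfd*, a ligand of PDGFRB, fell from 5569 ± 420.2 to 4279 ± 192 normalized counts (SD, n = 3), or by a log2 fold change of -0.38 (limma adjusted p = 0.0037). Per kb of exon, *Pdgfd* stood at 1766 ± 133 and *Pdgfb* at 975 ± 81.2 normalized counts in control, both above *Pdgfa*. *Pdgfb* had a log2 fold change of 0.06 (95% interval -0.08 to 0.20, limma adjusted p = 0.59). The transcripts of these 3 ligands stood far above those of *Pdgfra* and *Pdgfrb* in these cultures.

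Of 25 genes for heparan sulfate and FGF access, 24 were in the table, 2 rose and 2 fell, against 6.52% and 4.66% of all genes tested, with a median of -0.03. *Sulf1*, a secreted enzyme that removes 6-O-sulfate from heparan sulfate and so weakens FGF binding, fell most, from 451, 457 and 469 normalized counts in control to 192, 206 and 193 in DHT. That was a log2 fold change of -1.22 ± 0.08 (SE) (limma adjusted p = 5.6e-05). Its relative *Sulf2* stood at 4225 ± 199 normalized counts per kb in control, against 40.6 ± 0.79 for *Sulf1*, and had a log2 fold change of 0.07 (95% interval -0.04 to 0.17, limma adjusted p = 0.41). *Sdc1*, the proteoglycan syndecan-1, rose from 7565 ± 487 to 11836 ± 807 normalized counts (SD, n = 3), or by a log2 fold change of 0.65. *Gpc1*, the proteoglycan glypican-1, rose by a log2 fold change of 0.40, and *Ext2*, a heparan sulfate polymerase subunit, fell by 0.15 on the log2 scale. *Ext2* lost the call without control replicate 2 or any 1 of the DHT libraries.

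In the list of adaptors and the RAS-ERK cascade, all 21 genes were in the table, 1 rose and 2 fell, against 11.2% of all genes tested that passed either way, with a median of 0.03. *Frs2*, the docking protein of FGF receptors, rose from 16092 ± 1003 to 19868 ± 775 normalized counts (SD, n = 3), or by a log2 fold change of 0.31 (limma adjusted p = 0.0062). *Gab2*, an adaptor, and *Ksr1*, a scaffold of the ERK cascade, fell with log2 fold changes of -0.21 and -0.43. *Gab2* passed without control replicate 2 but in no other fit with a library left out, and *Ksr1* lost the call without control replicate 1, DHT replicate 2 or DHT replicate 3.

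Of 14 other inhibitors of receptor and RAS signalling, 2 rose and 1 fell, against 11.2% of all genes tested that passed either way, with a median of 0.00064. *Cblb*, a ubiquitin ligase that targets activated receptors, rose from 1580.0 ± 48.8 to 2343 ± 78.2 normalized counts (SD, n = 3), or by a log2 fold change of 0.57 (limma adjusted p = 0.00013). *Errfi1*, a feedback inhibitor of EGF receptors, rose by a log2 fold change of 0.48, and *Il17rd*, an FGF feedback inhibitor also known as Sef, fell by 0.34 on the log2 scale. Both lost the call in 4 of the 6 fits with a library left out. *Spred1* and *Spred2*, which carry a Sprouty-related domain, had log2 fold changes of -0.06 and -0.14 and did not pass (limma adjusted p = 0.38 and 0.24).

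Of 15 genes known to respond to ERK signalling, none rose and 4 fell, against 6.52% and 4.66% of all genes tested, with a median log2 fold change of -0.23. *Dusp4*, a phosphatase of ERK, fell from 3335, 3053 and 4224 normalized counts in control to 2005, 1863 and 1710 in DHT. The groups were well apart, and the log2 fold change was -0.92 ± 0.11 (SE) (limma adjusted p = 0.0010). *Egr1*, an immediate-early transcription factor, fell from 10526 ± 706 to 8304 ± 303 normalized counts (SD, n = 3), or by a log2 fold change of -0.34. *Ccnd1*, which encodes cyclin D1, and *Epha2*, an ephrin receptor, fell with log2 fold changes of -0.71 and -0.46. *Ccnd1* passed without control replicate 2 only, and *Epha2* lost the call without DHT replicate 2 or 3. *Dusp6*, the ERK phosphatase most often read as an FGF target, had 4261, 5761 and 6008 normalized counts in control and 6389, 5465 and 5786 in DHT. Its groups overlapped, and its log2 fold change was 0.15 (95% interval -0.11 to 0.42, limma adjusted p = 0.47). *Etv4* and *Etv5*, ETS factors induced by FGF, had log2 fold changes of -0.64 and -0.16 and did not pass (limma adjusted p = 0.26 and 0.36). *Dusp5*, another ERK phosphatase, and *Epha4*, an ephrin receptor, had higher levels in every DHT library than in any control, with log2 fold changes of 0.47 and 0.48, and did not pass (limma adjusted p = 0.061 and 0.12). In this list 1 gene rose by DESeq2 and 2 rose without control replicate 3. The number that fell was 1 without the intensity trend, 2 with the replicate block and 2 without DHT replicate 2 or 3. The plot of the 6 lists shows *Sulf1* and *Dusp4* farthest to the left.

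**Figure D4:**
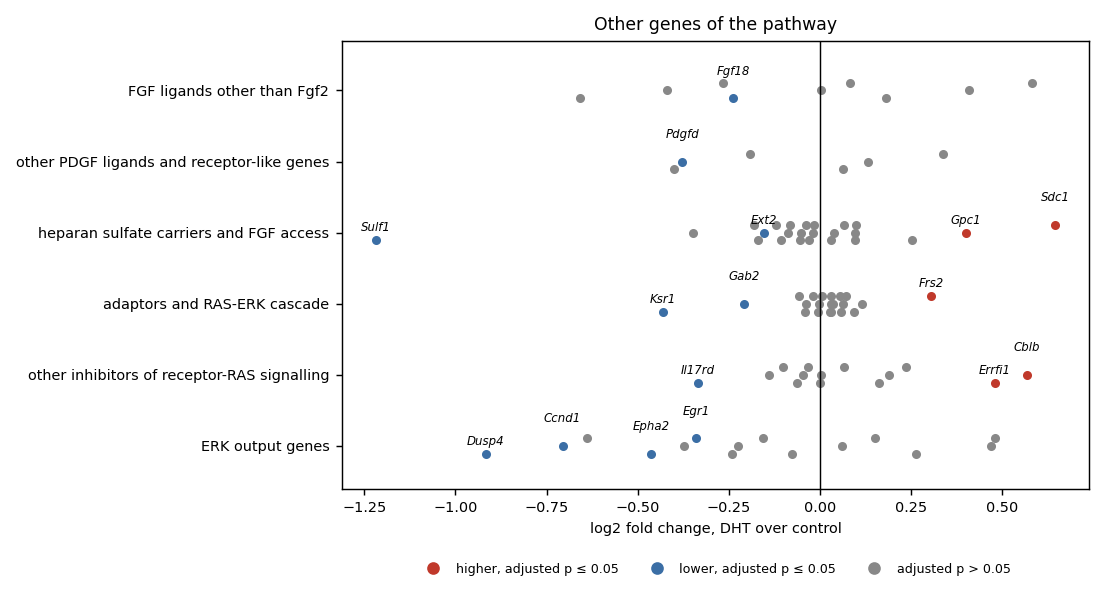
Log2 fold change of DHT over control for the 89 tested genes of 6 pathway lists, 1 point per gene and 1 row per list, with a small vertical offset for legibility. The 5 red genes rose and the 11 blue genes fell by the limma test. *Sulf1* is the lowest point at -1.22 and *Sdc1* the highest at 0.65.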

How the data were processed

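The members and the gene lists were chosen with earlier results of these data known. Per the labels and the methods, the authors trimmed reads with Trimmomatic 0.36, mapped them to GRCm38 with STAR 2.5.2b and counted unique exonic reads with Subread 1.5.2. The deposited signal of each gene and library is its read count divided by the DESeq2 size factor. The table also holds the authors' fold changes and p-values, and a second table repeats rows of the first. Neither was used. Dividing by the value of 1 read gave whole numbers, to within 1e-06, for 100% of values in every library.

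The log2(value + 1) values were tested with limma 3.58.1 (intensity trend, no block) in R 4.3.3 after removing genes whose mean was below 10, with Benjamini-Hochberg adjustment. Alternatives were edgeR 4.0.16 (quasi-likelihood) and DESeq2 1.42.0 (Wald) on recovered reads, pseudocounts of 0.5 and 8, no filter or one at a mean of 50, TMM or quantile scaling, no trend, a replicate block, and leaving out each library. The named genes were all 10 members, up to 4 pathway genes per direction and list that passed, and marker genes. Other genes named that did not pass were chosen after their values were seen. Groups came from the treatment characteristic, although a free-text label names DHT for every sample and another describes whole ovary. Nothing says which libraries share a culture day, so p-values measure the spread between these pools. The intervals assume limma's fit. Positions, overlaps and exonic lengths came from GENCODE M21 on GRCm38. Protein sequences were not used here.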

Additional observations from a re-analysis of the deposited data

How the results depend on the processing

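The falls of *Spry2* and *Fgfr3* passed under all 16 alternatives, with log2 fold changes from -0.96 to -0.88 and from -0.83 to -0.72. The count of members that fell was 3, against 2 with the replicate block and 2 to 3 with a library left out. The count that rose was 1, but 0 without the intensity trend, 0 with the replicate block and 2 by DESeq2, and it ranged from 0 to 2 with each library left out. *Fgfr1* passed under 11 and *Spry4* under 12 of the 16. In the blocked fit, the limma adjusted p was 0.067 for *Fgfr1* and 0.069 for *Spry4*. Among members that did not pass, the sign turned with a library left out in *Fgfr2* (-0.0090 to 0.27), *Pdgfra* (-0.69 to 0.082) and *Spry1* (-0.11 to 0.21). The cause was not tested.

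Of the pathway genes, 5 rose and 11 fell. Without the trend, 2 rose and 2 fell, with the replicate block 4 fell, and by DESeq2 8 rose. With each library left out, 4 to 9 rose and 4 to 10 fell. Over all genes, 1823 passed, against 804 without the trend, 990 with the replicate block and 931 to 2094 with a library left out. The replicate numbers did not pair the libraries: deviations of same-numbered libraries had correlations across genes of 0.0058, 0.067 and -0.24. Depth limits the PDGF receptors, *Spry1* and *Spry4* most, with 45 to 164 reads per library.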

Other observations

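For each member that passed, the 3 genes nearest in pattern were found among all tested genes by the Euclidean distance between log2 values centred over the 6 libraries. All comparisons share the same 6 libraries, and the distances are a description. Nearest to *Spry2* were *Angptl4*, *Stard10* and *Fhdc1*, at distances of 0.13, 0.19 and 0.20 on the log2 scale. *Angptl4*, which encodes an inhibitor of lipoprotein lipase, had mean normalized counts of 1672 without and 852 with DHT. Nearest to *Fgfr3* were *Slco2a1*, a prostaglandin transporter, *Cyb5a*, which encodes cytochrome b5, and *Rpl32l*, at 0.085, 0.088 and 0.12. *Slco2a1* had means of 1356 and 770.1. Nearest to *Spry4* were *Sytl1*, *Ccnd1* and *Ak7*, at 0.12, 0.24 and 0.27, and *Ccnd1* is also in the list of genes that respond to ERK signalling. Nearest to *Fgfr1* were *Ripk2*, a kinase of innate immune signalling, *Ubtd1* and *Rnf145*, at 0.054, 0.071 and 0.081.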
